A study of Mus musculus with 10 samples.

Results

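The leukocyte adhesion molecules of endothelium were examined in mouse liver as 7 genes, Sele, Selp, Selplg, Vcam1, Icam1, Icam2 and Madcam1, which were found by symbol among the 24011 named transcripts of the deposited table. They were taken by symbol alone, with earlier results of these data known, and each symbol matched 1 transcript. RNA was sequenced from whole liver of 10 male C57BL/6 mice on day 6 after an injection into the tail vein. In the AdVEGF group (n = 5) the mice received an adenovirus that expresses VEGF-A165 from the CMV promoter, and in the AdCMV group (n = 5) they received the empty vector that carries the promoter alone. Both groups were thus exposed to adenovirus, no uninjected mice were included, and the CMV promoter does not restrict expression of the transgene to one cell type. The question was how liver transcripts respond to VEGF, and for these 7 genes whether they changed with the rest of the endothelial transcripts. The replicates are labelled as biological, and since bulk liver was measured, fewer cells of a type and less RNA per cell cannot be told apart.

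Leukocytes leave the blood in steps. Selectins on the activated vessel wall, E-selectin (Sele) and P-selectin (Selp), catch passing leukocytes and let them roll, and the main partner of P-selectin on the leukocyte is P-selectin glycoprotein ligand (Selplg), which is made mostly by leukocytes. Firm arrest follows when leukocyte integrins bind members of the immunoglobulin superfamily on endothelium, of which Icam1 and Icam2 are ligands of the integrin LFA-1 (Itgal with Itgb2), Vcam1 is the ligand of VLA-4 (Itga4 with Itgb1) and Madcam1 is the ligand of Itga4 with Itgb7 in gut vessels. Sele, Vcam1 and Icam1 are classical targets of inflammatory cytokines through NF-kB, whereas Icam2 is made constitutively by endothelium. In liver, leukocytes are known to arrest in the sinusoids largely without selectins, and Icam1 and Vcam1 are also made by cells other than endothelium.

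The sequences before the transcription starts of 4 of the 7 genes are shown, since cytokine induction of such genes is known to act through short motifs in these stretches. Vcam1, Icam2 and Selplg were not matched in the promoter table used. They were taken from RefSeq on build GRCm38.p6, as the 250 bases before the start on the sense strand, 5′ to 3′. Their positions are chr1:164047984-164048233 (+) for Sele, chr1:164115014-164115263 (+) for Selp, chr9:21015690-21015939 (+) for Icam1 and chr10:79664309-79664558 (+) for Madcam1. Capitals mark matches on either strand to a kappaB-like motif (GGANNTTCC), an AP-1 motif (TGANTCA) or a TATA box (TATAAA).
Sele: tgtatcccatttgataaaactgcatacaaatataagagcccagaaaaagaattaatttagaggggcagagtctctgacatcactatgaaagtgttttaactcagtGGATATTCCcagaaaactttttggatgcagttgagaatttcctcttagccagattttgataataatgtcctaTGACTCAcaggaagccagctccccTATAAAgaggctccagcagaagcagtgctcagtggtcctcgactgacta
Selp: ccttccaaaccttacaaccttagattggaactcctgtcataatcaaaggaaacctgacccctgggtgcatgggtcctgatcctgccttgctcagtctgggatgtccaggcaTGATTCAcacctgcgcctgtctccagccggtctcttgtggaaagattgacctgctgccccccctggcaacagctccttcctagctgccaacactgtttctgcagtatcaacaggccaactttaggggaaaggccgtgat
Icam1: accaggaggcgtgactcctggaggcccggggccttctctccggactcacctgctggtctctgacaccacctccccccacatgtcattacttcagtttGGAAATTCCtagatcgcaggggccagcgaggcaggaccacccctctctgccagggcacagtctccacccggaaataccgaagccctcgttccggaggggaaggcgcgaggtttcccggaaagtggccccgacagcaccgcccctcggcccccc
Madcam1: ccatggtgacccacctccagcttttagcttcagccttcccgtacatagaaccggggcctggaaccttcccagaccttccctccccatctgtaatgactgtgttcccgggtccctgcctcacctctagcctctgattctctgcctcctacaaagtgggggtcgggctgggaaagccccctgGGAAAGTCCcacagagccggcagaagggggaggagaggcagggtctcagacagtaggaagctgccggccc
The kappaB-like motif began 145 bases before the start of Sele, 153 before that of Icam1 and 70 before that of Madcam1, where it was read on the opposite strand. The Sele promoter also held an AP-1 motif 73 bases and a TATA box 49 bases before the start, and the Selp promoter held an AP-1 motif 139 bases before it. In Icam1 a TATA box began 14 bases after the annotated start, outside the stretch shown. Of 32851 RefSeq promoters of 300 bases (250 before and 50 after the start), 4.26% held the kappaB-like motif, 7.81% the AP-1 motif and 13.6% the TATA box. The motifs were chosen after the sequences had been seen, and a match describes letters only.

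In the liver of AdVEGF mice Icam2 RNA was upregulated 6.47-fold, from 4.43 RPKM ± 1.02 to 28.7 ± 6.87 (SD, n = 5), and Vcam1 RNA was upregulated 2.07-fold, from 12.6 RPKM ± 5.70 to 26.0 ± 3.98 (SD, n = 5). The Vcam1 difference was called on the deposited values but not with the libraries scaled to each other. Icam1 was lower in AdVEGF, at 5.79 RPKM ± 2.17 against 9.12 ± 2.92 (SD, n = 5), but this difference was called only with the libraries scaled to each other. Selplg and Selp did not pass the test, and the RNA of Sele and Madcam1 was too scarce for it. RPKM is the read number divided by the length of the transcript and by the mapped tags of the library. A gene was tested with limma on log2(RPKM + 0.1) if its mean was over 0.5 RPKM in at least 1 group, and was called at a Benjamini-Hochberg adjusted p under 0.05 with a log2 fold change over 1 or under -1. Of the 7 genes, 5 passed the filter, and Selp did so only through its AdVEGF mean. By limma 2 members were called higher and 0 lower, where 13% of all 13933 genes tested were called higher and 1.54% lower.

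The libraries held 5758960 to 13494000 mapped tags in AdCMV and 5596560 to 8133950 in AdVEGF. The 21 major urinary protein genes, made by hepatocytes, took 36.6% ± 12.2 of the reads on genes in AdCMV and 16.3% ± 7.92 in AdVEGF (SD, n = 5), and across the transcriptome the central log2 fold change (the median over tested genes) was 0.38. Median-ratio scaling brought this median to -0.0044, with 7.77% of the genes called higher and 3.14% lower by limma, and of the members 1 was then higher and 1 lower. Upper quartile scaling gave the same member counts beside 8.07% and 2.82% of all genes. The part of the urinary protein genes in this shift was not tested, and for the genes named, values are therefore given on both scales where a call differs. In every library the reads on genes summed to more than the mapped tags, as in AdCMV replicate 4 with 10744078 against 9429220. A read may thus have been counted on more than 1 gene, and the urinary protein shares may be overstated.

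**Figure D1:**
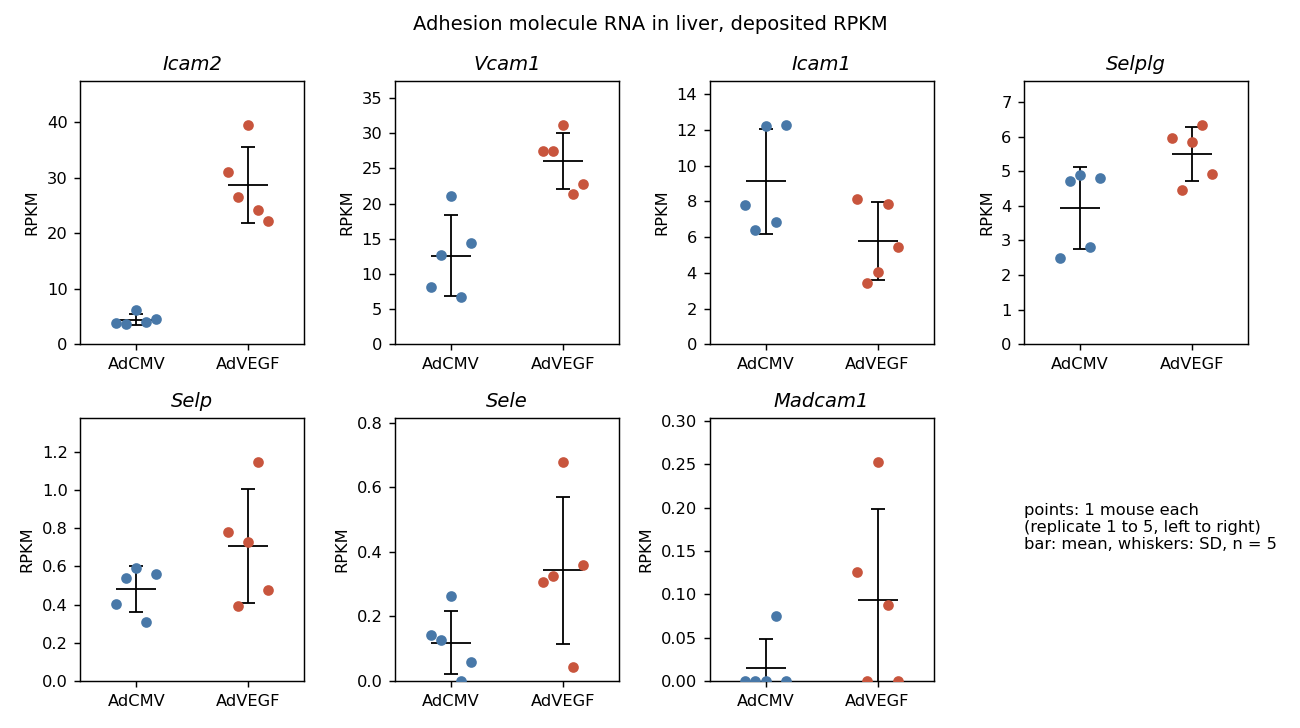
Deposited RPKM (vertical axes, linear, each from 0) of the 7 genes in the 5 AdCMV and 5 AdVEGF mice, with 1 point per mouse and a bar with whiskers for the mean and SD, cut at 0. All AdVEGF points lie above all AdCMV points for Icam2 and Vcam1, and the groups overlap for the other genes.

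Icam2 (NM_010494, mm9 chr11:106238970-106243955, minus strand) lies on endothelium, platelets and some leukocytes. In AdCMV replicates 1 to 5 it stood at 3.77, 3.65, 6.14, 4.01 and 4.59 RPKM. The AdVEGF mice, in the same order, stood at 31.0, 26.5, 39.5, 24.1 and 22.2 RPKM. The lowest AdVEGF mouse was well above the highest AdCMV mouse, and every AdVEGF mouse lay above every AdCMV mouse, as was the case for 14.3% of all genes tested. The log2 fold change of Icam2 was 2.66 (SE 0.21, limma adjusted p = 1.78e-07), which was above that of 98.5% of the genes tested. After median-ratio scaling it was 2.26 (SE 0.14, limma adjusted p = 4.57e-07). Between 30 and 56 reads per AdCMV library and 170 and 251 per AdVEGF library lay behind these values.

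Vcam1 (NM_011693, mm9 chr3:115812938-115832606, minus strand) was at 8.11, 12.7, 21.1, 6.67 and 14.4 RPKM in AdCMV replicates 1 to 5. The 5 AdVEGF mice were at 27.4, 27.4, 31.2, 21.3 and 22.7 RPKM. The groups did not overlap, although AdCMV replicate 3 came close to AdVEGF replicate 4, and the spread within AdCMV was wide. The log2 fold change of Vcam1 was 1.15 (SE 0.27, limma adjusted p = 0.00508), above that of 88.2% of the genes tested. After median-ratio scaling the difference was smaller, 0.75 (SE 0.17), and still had an adjusted p of 0.00684 by limma, but it fell short of the fold threshold. On that scale too all AdVEGF mice were above all AdCMV mice, as for Icam2 and for 10.6% of the genes tested. The call was likewise lost without AdCMV replicate 4, where the log2 fold change was 0.95.

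Icam1 (NM_010493, mm9 chr9:20820404-20833240, plus strand) was at 7.80, 6.41, 12.2, 6.83 and 12.3 RPKM in AdCMV replicates 1 to 5. In AdVEGF replicates 1 to 5 it was at 8.16, 3.41, 4.03, 7.87 and 5.46 RPKM. Of the AdVEGF mice, 3 of 5 were below every AdCMV mouse, and the other two lay inside the AdCMV range, while 1.29% of all genes had every AdVEGF mouse below. The log2 fold change was -0.67 (SE 0.28, limma adjusted p = 0.0856), which was above that of only 3.69% of the genes tested. After median-ratio scaling Icam1 was at 10.1 ± 1.55 in AdCMV and 5.02 ± 1.89 in AdVEGF (SD, n = 5), all 5 AdVEGF mice were below all AdCMV mice, as were 7.16% of the genes tested, and Icam1 was called lower at -1.07 (SE 0.24, limma adjusted p = 0.00661). This call was lost, by the fold threshold, without AdCMV replicate 5 (-0.99), AdVEGF replicate 2 (-0.90) or AdVEGF replicate 3 (-0.93). A single gene of the opposite sign to Icam2 was thus found among the members that passed the filter. In the table Icam1 is followed by Icam4 after 576 bases and Icam5 a further 1506 bases on, and no other transcript of the table overlaps it.

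**Figure D2:**
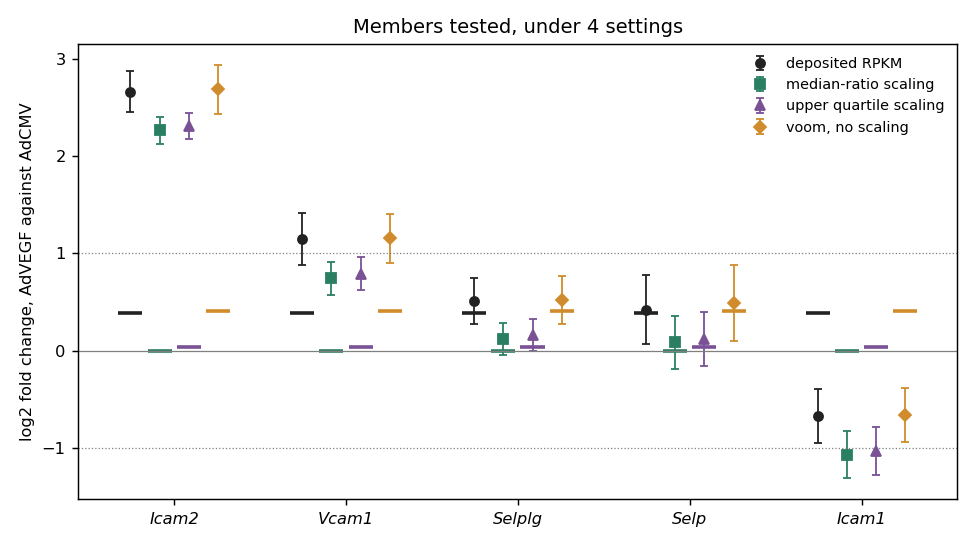
Log2 fold change of AdVEGF against AdCMV with its standard error (vertical axis) for the 5 members tested, under the deposited RPKM, median-ratio scaling, upper quartile scaling and voom on recovered reads. The short bars mark the all-gene median under each setting and the dotted lines the fold threshold. Icam2 lies above 2 under each of the 4 settings, Vcam1 lies on both sides of the threshold and Icam1 is the only member below 0.

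Selp (NM_011347, mm9 chr1:166045395-166080157, plus strand) encodes P-selectin, which is held ready in the Weibel-Palade bodies of endothelium and in platelet granules. It was at 0.404, 0.542, 0.594, 0.310 and 0.558 RPKM in AdCMV replicates 1 to 5. In AdVEGF it was at 0.781, 0.394, 0.731, 1.15 and 0.478 RPKM in the same order. The highest value came from AdVEGF replicate 4, and AdVEGF replicates 2 and 5 lay inside the AdCMV range. The log2 fold change was 0.42 (SE 0.35, limma adjusted p = 0.387), close to the median of all genes. After median-ratio scaling it was 0.09 (SE 0.28, limma adjusted p = 0.863). Only 10 to 25 reads per AdCMV library and 10 to 32 per AdVEGF library were counted, and the transcript overlaps Gm16548 on the opposite strand, whose reads cannot be told apart from those of Selp since the use of strand in counting was not given in the sources used here.

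Sele (NM_011345, mm9 chr1:165978365-165987808, plus strand) lies 57586 bases before Selp. It was at 0.143, 0.128, 0.263, 0 and 0.060 RPKM in AdCMV replicates 1 to 5, from 15 reads in all. In AdVEGF replicates 1 to 5 it was at 0.307, 0.325, 0.679, 0.042 and 0.359 RPKM, from 31 reads in all. Of the AdVEGF mice, 4 of 5 were above every AdCMV mouse, while AdVEGF replicate 4, the mouse with the highest Selp, had 1 Sele read. The difference in mean RPKM gave p = 0.0794 in a two-sided exact permutation test, in which 5 against 5 mice can reach 0.00794. A limit of 3 reads corresponds to 0.0768 to 0.185 RPKM for Sele, so 2 AdCMV mice and 1 AdVEGF mouse were below what this depth resolves. Madcam1 (NM_013591, mm9 chr10:79127319-79131281, plus strand) gave 1 read in the AdCMV group, in replicate 4 at 0.075 RPKM, and 4 reads in the AdVEGF group, at 0.126, 0.253 and 0.087 RPKM in replicates 1, 3 and 4. No mouse reached 3 reads for Madcam1, and a difference was not detectable at this depth (two-sided exact permutation p = 0.167).

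Selplg (NM_009151, mm9 chr5:114267807-114280510, minus strand), the leukocyte partner of the selectins, was at 2.50, 4.70, 4.88, 2.81 and 4.81 RPKM in AdCMV replicates 1 to 5. The 5 AdVEGF mice had 5.96, 4.45, 5.84, 6.34 and 4.92 RPKM. AdCMV replicates 1 and 4 were the lowest. On the deposited scale 4 of 5 AdVEGF mice were above every AdCMV mouse, and after median-ratio scaling 0 of 5 were. The log2 fold change of 0.51 (SE 0.24, limma adjusted p = 0.117) shrank to 0.12 after median-ratio scaling (limma adjusted p = 0.639).

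The order of the levels in RPKM, which is per length, differed between the groups. In AdCMV the order was Vcam1, Icam1, Icam2, Selplg, Selp, Sele and Madcam1. The ranges of Vcam1 and Icam1, of Icam2 and Selplg, and of Sele and Madcam1 overlapped, and Icam1 was above Icam2 in 5 of 5 mice. In AdVEGF the order was Icam2, Vcam1, Icam1, Selplg, Selp, Sele and Madcam1. Icam2 was above Vcam1 in 3 of 5 mice only, Icam1 was above Selplg in 3 of 5, and Vcam1 was above Icam1 in 5 of 5.

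The change of places between Icam1 and Icam2 was measured as a log2 ratio within each library, which does not depend on scaling between libraries. The ratio of Icam1 to Icam2 was 1.03, 0.80, 0.98, 0.75 and 1.40 in AdCMV replicates 1 to 5. In AdVEGF replicates 1 to 5 it was -1.91, -2.93, -3.26, -1.60 and -2.01. All AdVEGF mice were below all AdCMV mice, and the mean fell by 3.34 (two-sided exact permutation p = 0.00794, the smallest that 5 against 5 mice can give). It was 1 of 7 ratios computed, each at a pseudocount of 0.1, and the p-values are not adjusted.

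The other ratios set a member against a pan-endothelial index, which is the geometric mean of 14 endothelial markers such as Pecam1, Cdh5 and Tie1 in the same library. All 14 markers were called higher by limma on both scales, with a median log2 fold change of 2.68 and a summed level of 45.0 to 89.4 RPKM in AdCMV and 378 to 477 RPKM in AdVEGF. No difference from the index was detected for Icam2, whose log2 ratio was 0.49 ± 0.27 in AdCMV and 0.39 ± 0.29 in AdVEGF (SD, n = 5), a difference of -0.10 (two-sided exact permutation p = 0.492), which was smaller than the spread between mice. Vcam1 fell behind the index, from 1.89 ± 0.31 to 0.27 ± 0.23 (SD, n = 5), a difference of -1.62 (two-sided exact permutation p = 0.00794). The largest difference was that of Icam1, from 1.48 ± 0.15 to -1.95 ± 0.54 (SD, n = 5), a difference of -3.44 with the same p. The index itself rose by 2.76 on the log2 scale, so that a gene with the median change of all genes would differ from it by -2.38. The differences of Selp (-2.34) and Selplg (-2.25) were close to that value, that of Vcam1 was smaller and that of Icam1 larger in size, and a low p here speaks only of unequal change from the index. An index of 10 sinusoidal endothelial markers held 8 that rose, such as Stab2 and Lyve1, and 2 of opposite sign, Dnase1l3 and F8, whose 5 AdVEGF mice were all below all AdCMV mice. The sinusoidal index rose by 1.19 on the log2 scale, less than the pan-endothelial one. A gene with the median change of all genes would differ from it by -0.80. Against the sinusoidal index the Vcam1 difference was -0.042 (exact permutation p = 0.817), Icam2 rose by 1.48 (exact permutation p = 0.00794) and Icam1 fell by 1.86. The ratio of Sele to Selp was -1.51 ± 0.52 in AdCMV and -0.98 ± 1.27 in AdVEGF (SD, n = 5), a difference of 0.53 (exact permutation p = 0.437). As Sele lies near the pseudocount, this difference was 0.060 at a pseudocount of 1 and 1.21 at 0.01, and it was 1.07 without AdVEGF replicate 4 (exact permutation p = 0.0397).

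**Figure D3:**
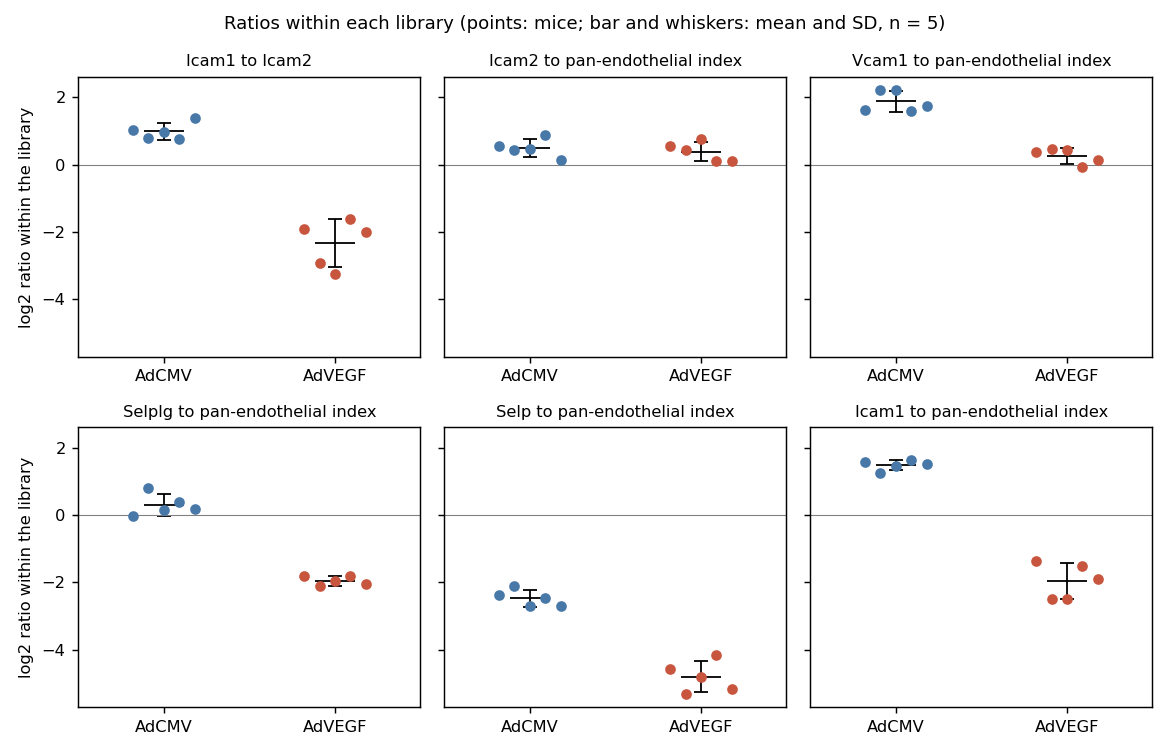
Log2 ratio within each library (vertical axis, shared) of Icam1 to Icam2 and of 5 members to the pan-endothelial index, with 1 point per mouse and a bar with whiskers for the mean and SD (n = 5). The groups overlap for Icam2 to the index and do not overlap in the other panels.

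Other genes of leukocyte adhesion were followed as 6 lists of 87 genes, of which 86 were in the table and 75 passed the filter. By limma 19 of the 75 were called higher and 0 lower, against 13% and 1.54% of all genes. After median-ratio scaling 11 were called higher and 4 lower, against 7.77% and 3.14% of all genes. The median log2 fold change of the 75 was 0.47, where that of all genes was 0.38. Among 14 other endothelial adhesion and transmigration genes 10 were called higher and 0 lower, with a median of 2.14. Pecam1, Cdh5 and Esam of this list are also pan-endothelial markers, and Stab1 is also a sinusoidal one. This list and the marker lists are therefore not independent. Cd34, a sialomucin of capillary endothelium, was at 0.439 RPKM ± 0.216 in AdCMV and 29.4 ± 4.06 in AdVEGF (SD, n = 5), a log2 fold change of 5.84 at a limma adjusted p of 2.00e-10. Podxl, a related sialomucin, rose by 3.19, Esam, a tight junction molecule, by 3.17, and Pecam1, which guides transmigration, by 2.61 on the log2 scale (limma adjusted p from 8.60e-08 to 3.29e-07).

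Of 11 leukocyte counter-receptors 1 was called higher and 0 lower, a share near the 13% of all genes called higher, with a median log2 fold change of 0.17, and none was called after median-ratio scaling. The gene called was Itgb1, a subunit of many integrins also made by endothelium and other cells, at 35.2 RPKM ± 12.1 and 69.4 ± 4.39 (SD, n = 5; log2 fold change 1.04, limma adjusted p = 0.00230, and 0.64 after scaling). Itgal, the partner of Icam1 and Icam2, was at 8.19 RPKM ± 3.00 in AdCMV and 8.85 ± 1.48 in AdVEGF (SD, n = 5). Itga4, the partner of Vcam1 and Madcam1, was at 4.99 RPKM ± 1.94 and 4.37 ± 1.14 (SD, n = 5). Itgb2 had a log2 fold change of -0.12 and Itgb7 of -0.24, and neither was called. Cd44 had 0.78, Glg1 0.60 and Itgax -0.62.

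Of the enzymes that build selectin ligands, 8 of 11 passed the filter. Beside all-gene shares of 13% higher on the deposited scale and 7.77% on the scaled one, 2 were called higher and 0 lower on both. These were the sialyltransferase St3gal6, at 0.702 RPKM ± 0.141 and 2.49 ± 0.745 (SD, n = 5; log2 fold change 1.66, limma adjusted p = 0.000280), and the sulfotransferase Chst2, at 0.572 RPKM ± 0.245 and 1.86 ± 0.200 (SD, n = 5; log2 fold change 1.64, limma adjusted p = 0.00138). Tpst2, which sulfates tyrosines, had a log2 fold change of 0.89 and St3gal4 of 0.69. Fut4, Fut7 and Chst4 were below the filter.

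Of 32 genes of cytokine and NF-kB induction 29 were tested, with a median log2 fold change of 0.35. Of these, 1 was called higher and 0 lower, against 13% and 1.54% of all genes. After median-ratio scaling 0 were called higher and 3 lower, against 7.77% and 3.14% of all genes. Il1a, an inflammatory cytokine, was called higher at 1.18 (limma adjusted p = 0.00490), although not after median-ratio scaling, at 0.79. Irf1, an interferon and cytokine response factor, was at 32.5 RPKM ± 6.99 in AdCMV and 17.6 ± 1.10 in AdVEGF (SD, n = 5), with all 5 AdVEGF mice below all AdCMV mice. Its log2 fold change was -0.85 (limma adjusted p = 0.00324), and it was called lower after median-ratio scaling at -1.26 (limma adjusted p = 1.16e-05). Tnf and Tnfaip3, a cytokine and a feedback inhibitor of NF-kB, named after their values were seen, were not called on the deposited scale, at -1.16 and -0.74 (limma adjusted p = 0.0645 and 0.0853), and were called lower on the scaled one, at -1.49 and -1.12 (limma adjusted p = 0.0230 and 0.00247). Il13ra1 had a log2 fold change of 0.89 and Nfkb1 of 0.67 on the deposited scale. Nfkbia (0.30 deposited, -0.10 scaled), Birc3 (0.10 and -0.30) and Nfkb2 (0.59 and 0.19), also named after their values were seen, were called on neither scale.

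Of 9 genes of Weibel-Palade storage, from which P-selectin is released, 8 were tested. Against 13% of all genes, 3 were called higher and 0 lower. Among them were Angpt2 at 1.31 and Cd63 at 1.29 on the log2 scale, neither of which was called after median-ratio scaling, at 0.95 and 0.89. Vwf, the main cargo of these bodies, was at 0.475 RPKM ± 0.213 and 0.520 ± 0.583 (SD, n = 5) and was not called, and the exocytosis factor Sytl4 had -0.78 on the deposited scale and was called lower after that scaling, at -1.12 (limma adjusted p = 0.00827). Ectodomain shedding, by which adhesion molecules are cut from the surface, was followed in 5 genes. Of these, 2 were called higher and 0 lower, against 13% and 1.54% of all genes. Timp3, an inhibitor of the sheddases, rose by 2.23 (limma adjusted p = 1.73e-06) and Rhbdf1 by 1.36 (limma adjusted p = 0.00652), the latter not called after scaling, at 0.97. The sheddases Adam10 and Adam17 had log2 fold changes of 0.68 and 0.30.

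**Figure D4:**
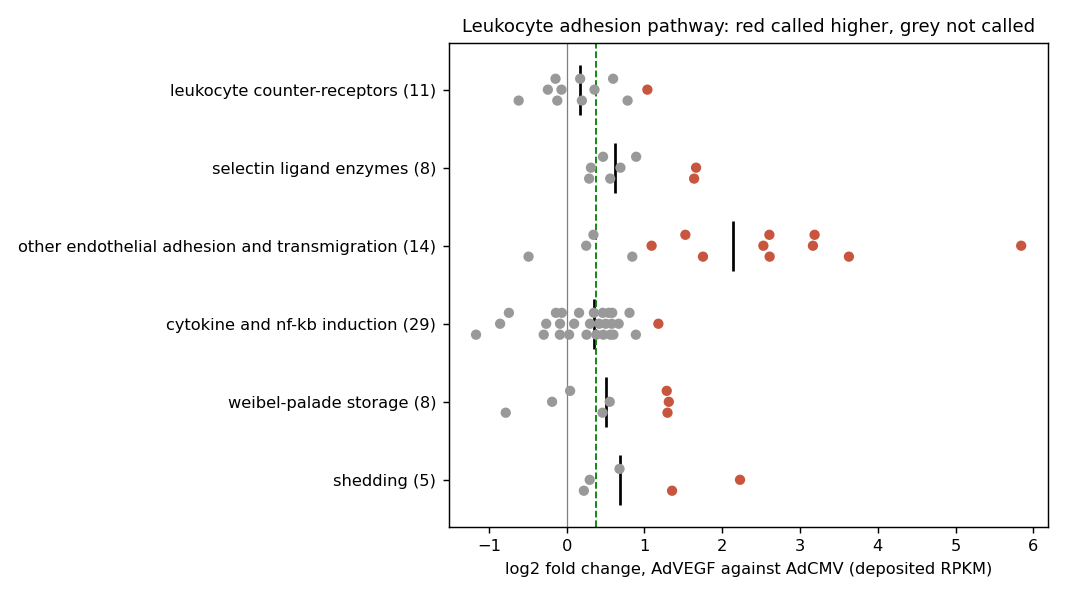
Log2 fold change of AdVEGF against AdCMV on the deposited RPKM (horizontal axis) for the tested genes of the 6 lists, with 1 point per gene, red where called higher and grey where not called. Black bars mark list medians and the dashed line that of all genes, 0.38, and the other endothelial genes lie furthest to the right by their median.

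Markers of the cell types in liver were followed as lists, with levels summed over all listed genes. Of all genes, 13% were called higher and 1.54% lower, and 7.77% and 3.14% after median-ratio scaling. Of 10 sinusoidal endothelial markers 8 were called higher and 0 lower by limma, with a median of 1.66 and a summed level of 67.8 to 116 RPKM in AdCMV and 204 to 286 RPKM in AdVEGF, whereas 6 were higher and 2 lower once median-ratio scaling was applied, the latter being Dnase1l3 (-0.98 deposited, -1.37 scaled) and F8 (-0.89 deposited, -1.29 scaled). All 8 stellate cell markers were called higher, 7 after scaling (23.4 to 40.4 against 71.5 to 134 RPKM), as were 4 of 12 Kupffer cell markers, 3 after scaling (147 to 320 against 312 to 481 RPKM). Of 9 T and NK cell markers 6 were called lower and 0 higher, 7 lower after scaling (16.2 to 46.5 against 11.5 to 22.6 RPKM). Of 9 neutrophil markers 4 were called higher (40.7 to 135 against 44.9 to 245 RPKM), namely the granule genes Mpo, Elane, Camp and Ngp. These 4 passed the filter only through their AdVEGF means, with AdCMV means of 0 to 0.0944 RPKM, and Camp lost its call after scaling (log2 fold change 2.20 deposited, 1.93 scaled, limma adjusted p = 0.0802). Of 5 monocyte markers 1 was called lower (59.5 to 104 against 45.0 to 109 RPKM). Beside Selp, which platelets also contain, all 4 platelet markers tested were called higher (3.89 to 6.84 against 11.1 to 37.1 RPKM), while Gp9, Gp1ba, Gp5 and Gp6 were below the filter. B cell markers were called higher in 3 of 4, and in 1 after scaling (0.669 to 1.71 against 3.0 to 8.12 RPKM). Of the hepatocyte markers 2 of 6 were called higher and 0 lower, and after scaling 0 higher and 1 lower, Cyp2e1 at -0.77 deposited and -1.17 scaled (11158 to 17216 against 23899 to 28286 RPKM), and the 1 mesothelial marker tested was not called (0.641 to 1.19 against 0.721 to 1.88 RPKM). No marker of these lists was at 0 in all mice, and the part of these cell types in the values of the 7 genes was not tested.

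**Figure D5:**
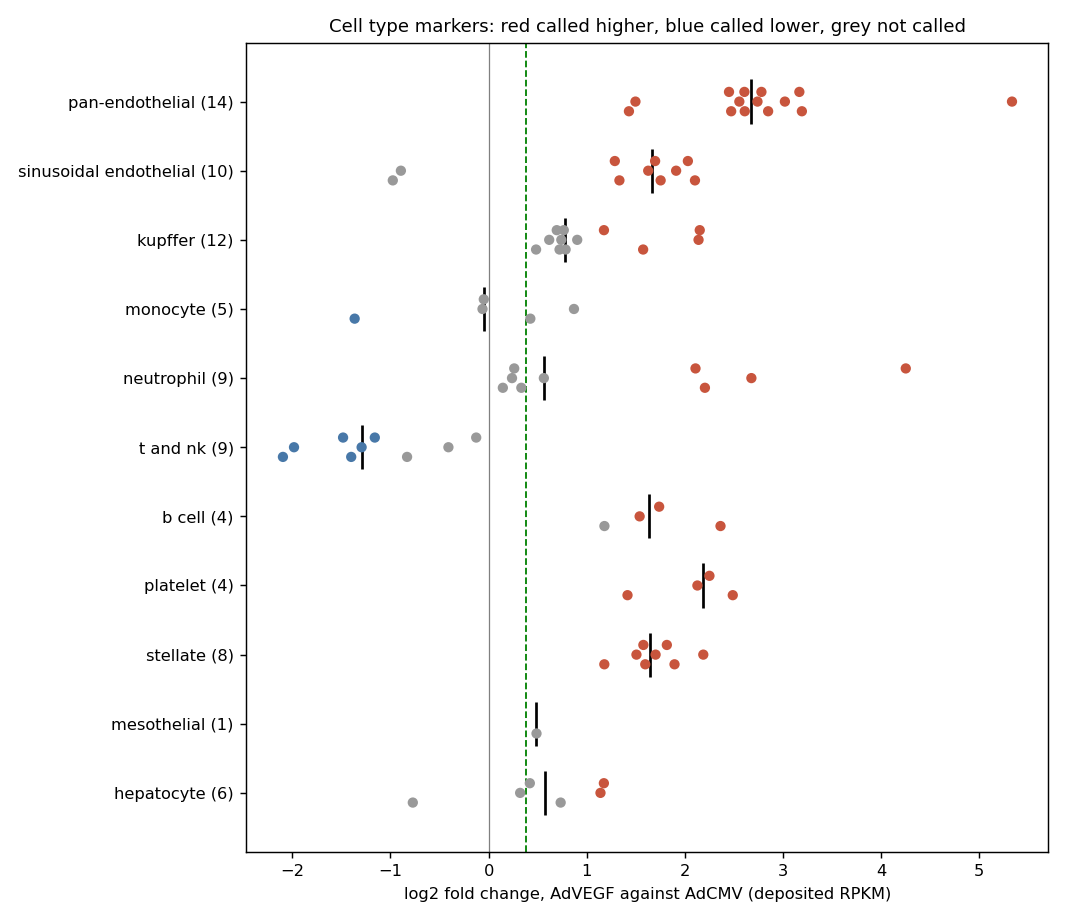
Log2 fold change of AdVEGF against AdCMV on the deposited RPKM (horizontal axis) for the tested genes of the cell type marker lists, with 1 point per gene, red where called higher, blue where called lower and grey where not called. The pan-endothelial markers lie to the right of all lists by their median, 2.68, and the T and NK cell markers lie to the left, at -1.29. Pecam1, Cdh5, Esam and Stab1 are shown here and also among the adhesion lists.

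Over the 10 mice, as deviations from the group means after median-ratio scaling, Pearson's r was -0.25 between Icam1 and Icam2, -0.30 between Vcam1 and Icam1, and 0.018 between Vcam1 and Icam2. Selplg had 0.31 with Vcam1, 0.31 with Icam1 and -0.16 with Icam2. Of 12268 genes, those most like Icam2 in this respect were Cd99l2 (r = 0.929), Igtp (0.920), Tapbp (0.903), Ifih1 (0.892) and Med1 (0.885). Those most like Vcam1 were Tmcc3 (r = 0.939), Sgce (0.933), Mef2c (0.924), Rbbp8 (0.919) and Ezh2 (0.916). For Icam1 they were 2210417A02Rik (r = 0.947), Gm1821 (0.944), Jade2 (0.913), Myo5b (0.889) and Mvk (0.888), and for Selplg Smtn (r = 0.915), Nr1i2 (0.906), Fam53a (0.892), Esm1 (0.887) and Prkcdbp (0.869). The r values of the genes named are the highest of 12268 from only 10 mice, so they were picked for being high and were not tested. The values share libraries and depth and are given as a description.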

How the data were processed

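Liver RNA of 5 AdVEGF and 5 AdCMV mice was depleted of ribosomal RNA and sequenced. The authors mapped the reads with TopHat and, per the labels, used HOMER and the build mm9, and they deposited RPKM values, normalized to the mapped tags of each library, for 24016 transcripts. RPKM was not scaled between libraries, so a large change in abundant genes can shift all others. The authors also deposited their own log2 fold change and FDR (adjusted p-value) for each transcript, which were not used. Groups follow the labels. Reads and mapped tags were recovered from the steps of the RPKM values, where at least 99.9956% of the values with a resolvable step were whole within 0.1 read, and limits at 3 reads cover counting error only. The 5 transcripts with no symbol were left out of the tests.

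Genes whose group mean exceeded 0.5 RPKM in AdVEGF or AdCMV were compared with limma 3.58.1 (R 4.3.3; lmFit, eBayes with a trend) on log2(RPKM + 0.1) with Benjamini-Hochberg adjustment, so that fold changes of low genes are understated. Tested on simulated data with 13170 genes for AdVEGF against AdCMV, the fit recovered 98% of log2 changes of 2 and 100% of changes of 3, with 8 false calls among 12970 unchanged genes. The simulated libraries were drawn from the AdCMV means at a fixed dispersion, with changes only in genes over 1 RPKM. They held no shift shared by all genes, so this test does not bear on calls that scaling changes or on changes near the threshold. Single values and ratios were compared with two-sided exact permutation tests (Python 3.11.15, numpy 2.4.6). Genes named besides the members were the 4 with the smallest adjusted p in each list, the integrin and selectin partners, and the 5 most correlated genes of each member with a mean of at least 1 RPKM; others are named as markers, as called, or as chosen after their values were seen, and some genes that the rule names are not reported here. Members and lists were chosen with earlier results of these data known. Alternatives were 2 scalings, other pseudocounts and filters, treat, the replicate block, voom on recovered reads and leaving out each mouse. Voom with median-ratio scaling and leaving out each mouse after that scaling were added after seeing the data.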

Additional observations from a re-analysis of the deposited data

Results flagged for a closer look

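A rule for outlying samples flagged 1 group. Madcam1 in AdCMV replicate 4 was at 0.075 RPKM, which is 1 read, whereas the other 4 AdCMV mice were at 0, so that the gap made up the whole range of the group (1 against a critical value of 0.71 in Dixon's test for 5 samples). With the other 4 mice at 0, any single read gives a gap of 1, so the flag does not mark this mouse as unusual. In all 28 groups of 5 mice were checked in this way. For continuous values chance gives about 1 such sample in 20 groups, a rate that does not hold for values at 0 or 1 read.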

How the results depend on the processing

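Among the members, Icam2 was called higher under every alternative run, while scaling between libraries ended the call of Vcam1 and added that of Icam1. The number of members called higher went from 2 to 1 with median-ratio scaling, upper quartile scaling, treat, median-ratio scaling with the replicate block and voom with median-ratio scaling, and was 1 to 2 with single mice left out (1 without AdCMV replicate 4) and 1 throughout after scaling. The number called lower went from 0 to 1, Icam1, with both scalings, median-ratio scaling with the replicate block and voom with scaling, was 0 with single mice left out, and was 0 to 1 after scaling. For all genes, 1808 higher and 214 lower calls became 1082 and 438 with median-ratio scaling, 1125 and 393 with upper quartile scaling, 503 and 36 with treat, 1081 and 475 with scaling and the replicate block, and 1135 and 477 with voom and scaling, and 954 were higher at a pseudocount of 1. Single mice left out gave 1425 to 2357 higher and 178 to 225 lower, or 1012 to 1127 and 384 to 456 after scaling. For the lists, 19 higher calls became 11 (median-ratio, also with the replicate block), 12 (upper quartile, voom with scaling) and 9 (treat), with 17 to 20 when mice were left out and 11 to 14 after scaling. The 0 lower calls became 4 (both scalings, also with the replicate block), 1 (replicate block alone) and 5 (voom with scaling), with 0 to 1 when mice were left out and 3 to 5 after scaling. Without scaling the replicate block gave 1933 higher and 256 lower calls, and Icam1 then had a limma adjusted p of 0.0435 at -0.67, short of the fold threshold.

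Whether the replicate numbers pair the mice was not settled: same-numbered mice correlated at 0.0076 to 0.291, and 3 of 5 best with their own number. Permuted within these pairs, which allow no p below 0.0625, the ratio differences of -2.34 (Selp), -2.25 (Selplg), -1.62 (Vcam1), -3.44 (Icam1) and -3.34 (Icam1 to Icam2) all had p = 0.0625 by exact permutation. With single mice left out these ranged from -2.50 to -2.21, -2.33 to -2.12, -1.69 to -1.53, -3.59 to -3.30 and -3.52 to -3.11. Against the sinusoidal index the Vcam1 difference was -0.042. The Icam2 difference of -0.10 changed sign at a pseudocount of 1 (0.056) and against the sinusoidal index (1.48), and was -0.20 to -0.0069 with single mice left out. The Sele to Selp difference was 0.31 to 1.07 with mice left out, 0.060 at a pseudocount of 1 and 1.21 at 0.01. The Selp log2 fold change, 0.42 with all mice, ran up to 0.58 with mice left out and changed sign, to -0.076, after scaling without AdVEGF replicate 4. Depth limits Sele and Madcam1, whose values rest on a few reads. The causes were not tested.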
